A study of Homo sapiens with 6 samples.

Results

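In Nthy-ORI cells given the thyroid hormone T3 for 6 h, 5456 of the 12112 accessible regions on chromosomes 1 to 22 and X (45.0%) were in the 6 h list only. These 6 h only peaks were chosen by their overlap with the other lists: none overlapped a peak of the vehicle list or of the T3 24 h list by 50% or more of the shorter peak. The number, the share of 45.0% and the absence from the other lists are therefore set by the selection and are no finding. Of the other 6 h peaks, 4468 were shared with the 24 h list only, 730 with the vehicle list only and 1458 with both.

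Accessibility was measured by ATAC-seq, with nuclei of 50000 cells in each transposition, in Nthy-ORI, an immortalised human line derived from normal thyroid follicular epithelium. All cells spent 24 h in hormone-stripped medium and were then given NaOH as vehicle (labelled 6 h), 10 nM T3 for 6 h, or 10 nM T3 for 24 h, with 2 samples in each of the 3 groups. The series concerns thyroid hormone receptor beta and its part in chromatin accessibility. Each group is represented by 1 list of peaks called from both of its samples, with 6811 peaks in the vehicle list and 60299 in the 24 h list on the same chromosomes. There is thus no replicated value per condition and no test between conditions. The lists hold no value for regions outside their peaks, so absence from a list does not measure closure, and more open cells cannot be told apart from more opening per cell.

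ATAC-seq uses the Tn5 transposase, which inserts adapters where DNA is not wrapped in nucleosomes, so peaks mark promoters, enhancers and other exposed DNA. Thyroid hormone receptors sit on DNA with or without hormone, and T3 binding exchanges corepressors for coactivators. SWI/SNF complexes slide or evict nucleosomes and are among the remodellers recruited by nuclear receptors. In thyroid follicular cells PAX8, NKX2-1, FOXE1 and HHEX are the lineage transcription factors.

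Few 6 h only peaks covered a gene start, and the starts that they covered were mostly poor in CG dinucleotides. The promoter sequences of the 6 highest ranked of these starts are shown because this is where the base composition can be read directly. Peaks were ranked by the lower of the 2 percentiles that their replicate signals had in the 6 h list. Each sequence is the 200 bases before the start on the gene's strand (RefSeq, GRCh38.p14), with CG dinucleotides in capitals. The last 2 sequences, SPHKAP and ZNF436, belong to the 2 highest ranked such peaks among those shared with the 24 h list and are given for contrast.
KRTAP24-1: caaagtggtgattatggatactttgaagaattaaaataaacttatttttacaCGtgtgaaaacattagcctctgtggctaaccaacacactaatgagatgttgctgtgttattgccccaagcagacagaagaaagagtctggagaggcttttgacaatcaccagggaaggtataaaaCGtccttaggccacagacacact
DEFB129: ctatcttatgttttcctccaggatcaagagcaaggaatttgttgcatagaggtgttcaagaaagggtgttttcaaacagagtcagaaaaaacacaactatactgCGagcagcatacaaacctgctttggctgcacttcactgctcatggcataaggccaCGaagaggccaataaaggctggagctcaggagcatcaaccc
MINAR2: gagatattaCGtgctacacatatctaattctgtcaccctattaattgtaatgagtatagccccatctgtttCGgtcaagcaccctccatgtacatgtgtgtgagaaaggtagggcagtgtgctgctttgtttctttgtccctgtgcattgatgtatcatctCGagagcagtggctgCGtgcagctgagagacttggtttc
OR4D1: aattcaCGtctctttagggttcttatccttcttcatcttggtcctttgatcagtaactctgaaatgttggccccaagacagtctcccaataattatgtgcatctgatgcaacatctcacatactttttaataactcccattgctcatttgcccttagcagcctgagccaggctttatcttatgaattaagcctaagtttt
PLEKHG1: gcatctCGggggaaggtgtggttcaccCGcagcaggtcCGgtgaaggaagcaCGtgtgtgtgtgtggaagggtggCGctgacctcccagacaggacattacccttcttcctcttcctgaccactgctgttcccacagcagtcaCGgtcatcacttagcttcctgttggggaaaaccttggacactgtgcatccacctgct
AP3B2: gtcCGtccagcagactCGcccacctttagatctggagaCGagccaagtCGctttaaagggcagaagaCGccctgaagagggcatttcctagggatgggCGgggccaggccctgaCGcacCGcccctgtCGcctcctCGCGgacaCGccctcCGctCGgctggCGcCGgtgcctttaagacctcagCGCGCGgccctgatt
SPHKAP: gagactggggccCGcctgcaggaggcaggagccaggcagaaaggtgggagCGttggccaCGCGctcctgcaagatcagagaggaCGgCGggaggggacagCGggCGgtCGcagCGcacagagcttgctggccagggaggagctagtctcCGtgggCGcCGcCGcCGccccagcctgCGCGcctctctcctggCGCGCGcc
ZNF436: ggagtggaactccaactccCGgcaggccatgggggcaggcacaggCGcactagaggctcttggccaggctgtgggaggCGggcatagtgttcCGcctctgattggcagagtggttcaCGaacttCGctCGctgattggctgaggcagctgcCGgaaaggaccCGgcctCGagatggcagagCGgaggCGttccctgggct

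KRTAP24-1, a hair keratin-associated protein, is encoded on the minus strand of chromosome 21, and the printed bases are chr21:30282951-30283150. Its member peak, chr21:30281708-30283667, had signals of 7.11 and 6.49 in the replicate columns. DEFB129 encodes a beta-defensin, one of a family of small secreted antimicrobial peptides. Its printed bases, chr20:227058-227257, are on the plus strand under the peak chr20:226059-227576, which had signals of 5.79 and 6.43. Each of these printed runs holds 2 CG dinucleotides.

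The printed bases of MINAR2 are chr5:129747894-129748093 on the plus strand, with 4 CG dinucleotides. They lie under the peak chr5:129747187-129748461, with signals of 5.07 and 5.90 and replicate summits 731 bp apart. OR4D1, an olfactory receptor gene, has its printed bases at chr17:58148184-58148383 on the plus strand, with 1 CG dinucleotide. The covering peak, chr17:58148113-58149687, had signals of 7.11 and 5.75. The 200 bases of PLEKHG1 at chr6:150683447-150683646, plus strand, hold 6 CG dinucleotides under the peak chr6:150683298-150684652, with signals of 5.50 and 5.73 and summits 13 bp apart.

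AP3B2, a subunit of the neuronal AP-3 vesicle adaptor, is the CG-rich exception among the 6. Its bases, chr15:82709876-82710075 on the minus strand, hold 19 CG dinucleotides, and the peak chr15:82709829-82712451 had signals of 6.26 and 5.89. For contrast, SPHKAP has 20 CG dinucleotides at chr2:228181688-228181887 on the minus strand, under a shared peak with signals of 7.55 and 9.33. ZNF436 has 12 at chr1:23368336-23368535 on the minus strand, under a shared peak with signals of 6.96 and 8.71. ZNF436 has another start in such a peak, not printed, and the 300-base promoters of its 2 starts hold 18 and 4 CG dinucleotides.

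Over all covered starts the difference in composition was the same in kind. The 6 h only peaks held 41 of 22132 annotated starts of protein-coding genes (0.185%), in 37 genes and 37 peaks, none of them read on chromosome 8. Their 300-base promoters, from 250 bases before to 50 after the start, had a median of 5 CG dinucleotides (quartiles 2 and 12). The 1916 starts inside peaks shared with the 24 h list had a median of 25 (19 and 31), and all 22132 starts a median of 21 (7 and 31). Fewer than 10 CG dinucleotides were found in 28 of 41 starts of 6 h only peaks (68.3%, 95% Clopper-Pearson interval 51.9 to 81.9). This interval counts starts under the same peak separately. The share was 4.07% of starts in shared peaks and 29.9% of all starts. Median GC content was 54.0% in starts of 6 h only peaks, 63.0% in starts of shared peaks and 62.3% in all starts. In 6 h only peaks, 4 starts had 20 or more CG dinucleotides, at AP3B2, POM121C, PTGR2 and MYL12A. All of them lay in peaks that touched a 24 h peak by less than the overlap limit.

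The composition depended on how the lists were matched, and it is not independent of leaving out the starts that the 24 h list holds. The share of covered starts with fewer than 10 CG dinucleotides was 28.2% (44 of 156) when sharing required 50% of the longer peak, and 8.95% (47 of 525) when every list was limited to its 6811 strongest peaks. It was 33.3% (2 of 6) among members with replicate summits within 100 bp. At an irreproducible discovery rate (IDR) of at most 0.01 for the 6 h peaks it was 72.7% (8 of 11), against 19 of 669 starts in peaks shared with the 24 h list.

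**Figure D1:**
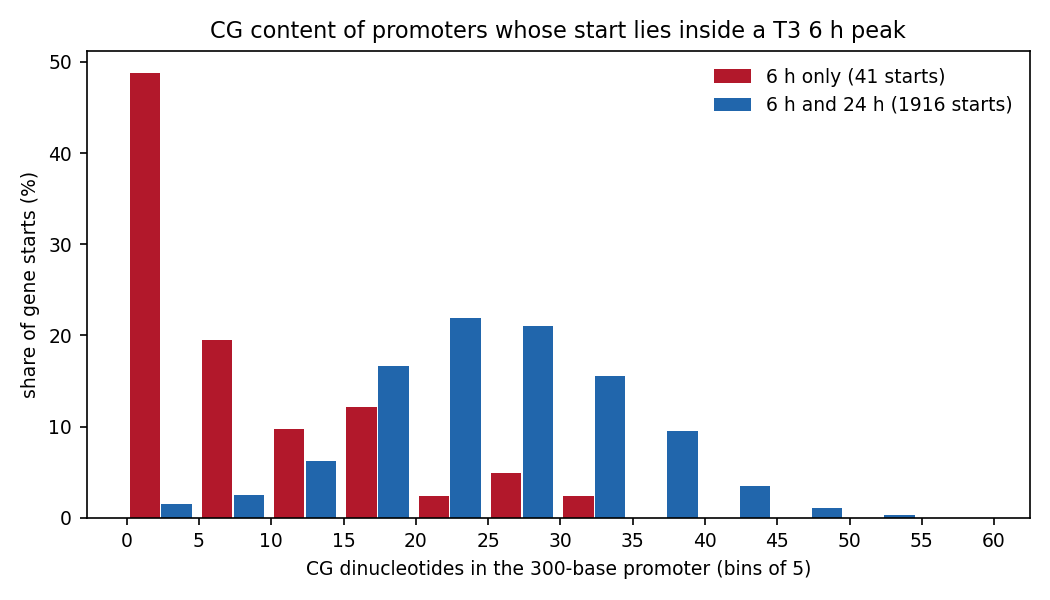
CG dinucleotides per 300-base promoter (x axis, bins of 5) for gene starts inside 6 h only peaks (red, 41 starts) and inside 6 h peaks shared with the 24 h list (blue, 1916 starts), as a share of starts in percent (y axis). The red bars are highest in the lowest bin and the blue bars around their median of 25. With lists of equal length the share of 6 h only starts under 10 CG dinucleotides is 8.95% in place of 68.3%.

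Short motifs were searched on both strands of the same promoters, each by its letters. GGGCGG, the GC box bound by Sp/KLF factors, was in 31.7% of starts of 6 h only peaks, 66.5% of starts of shared peaks and 56.3% of all starts. CCGGAAG, the core of ETS family sites, was in 4.88%, 23.2% and 12.8% in the same order. AGGTCA, the half-site of nuclear receptors including thyroid hormone receptors, was in 9 of 41 starts of 6 h only peaks (21.95%), against 10.2% in shared peaks and 11.9% of all starts. These 9 starts included PLEKHG1, CCT8L2, POM121C and ALPI. TGANTCA, the AP-1 core, was in 4.88%, 4.12% and 6.15%, CCAAT in 34.1%, 43.1% and 34.6%, and TATAAA in 9.76%, 3.91% and 9.46%. GGGCGG and CCGGAAG contain CG, so their counts move with CG content. With 41 starts, a share carries a wide counting error, and a match is a description of letters only. Like the CG shares, the motif shares are not independent of leaving out the starts that the 24 h list holds. They were not recomputed under other ways of matching the lists.

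Members also touched 8 of the 1558 annotated microRNA hairpins (0.513%), while they covered 0.223% of bases. MIR30C1, of the miR-30 family, lies inside NFYC, a subunit of the CCAAT-binding factor NF-Y, under the member chr1:40756465-40758123. MIR4670 lies inside CENPP, a kinetochore protein gene, under chr9:92527244-92528717. The mature 5p sequences (RefSeq, GRCh38.p14) have the seed, bases 2 to 8, in capitals, and the seeds differ.
hsa-miR-30c-5p: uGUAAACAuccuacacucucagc
hsa-miR-4670-5p: aAGCGACCaugauguaacuuca

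The MIR30C1 peak had signals of 3.79 and 9.20, with summits 678 bp apart, so the replicate columns differed in both height and place. The MIR4670 peak had signals of 4.54 and 8.27, summits 22 bp apart and the highest possible score of 1000. The other 6 hairpins were MIR4421 and MIR6500, which share a member, and MIR3147, MIR6840, MIR7151 and MIR6750.

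As a group, the 6 h only peaks were close in width to the other 6 h peaks and lower in replicate agreement. Their median width was 1189 bp (quartiles 948 and 1483), against 1113 bp for peaks shared with the 24 h list, 1210.5 bp for those shared with vehicle and 1174 bp for those in all lists. Together they covered 6.77 Mb. The deposited signal is the sum of both replicate columns and ranged from 8.35 to 18.5, with a median of 9.90. By column, the medians were 4.33 in the first and 5.48 in the second. The 6 h peaks shared with the 24 h list had a median summed signal of 10.0 and column medians of 4.71 and 5.31. Those shared with both other lists had 12.7, and 5.83 and 6.97 by column. Only 604 of the 5456 members (11.1%) stood at or above the median of the 6 h list in both columns, and 11 stood in the top 10% in both. For peaks shared with the 24 h list the first of these counts was 644 of 4468 (14.4%), and for those in all lists 819 of 1458 (56.2%).

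Peaks entered the deposited list by the IDR method, which keeps peaks that rank alike in both replicates. Its scaled score runs from 540 at an IDR of 0.05 to 1000. The members' median score was 671, and 504 of them (9.24%) had the score 1000. An IDR of at most 0.01 was reached by 21.4% of members (20.3 to 22.5), against 30.3% of peaks shared with the 24 h list, 41.8% of those shared with vehicle and 72.4% of those in all lists. The replicate summits of members lay a median of 267 bp apart, and 20.8% (19.8 to 21.9) lay within 100 bp. The corresponding shares were 29.4%, 40.8% and 53.4% in the 3 sets of shared peaks. In 201 members the summits were over 1 kb apart. Across the members, the 2 replicate signals had a Spearman correlation of -0.57, against -0.47 for peaks shared with the 24 h list, -0.23 for those shared with vehicle and 0.47 for those in all lists. All peaks were selected on both columns, peaks are not independent replicates, and the correlation is given as a description.

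**Figure D2:**
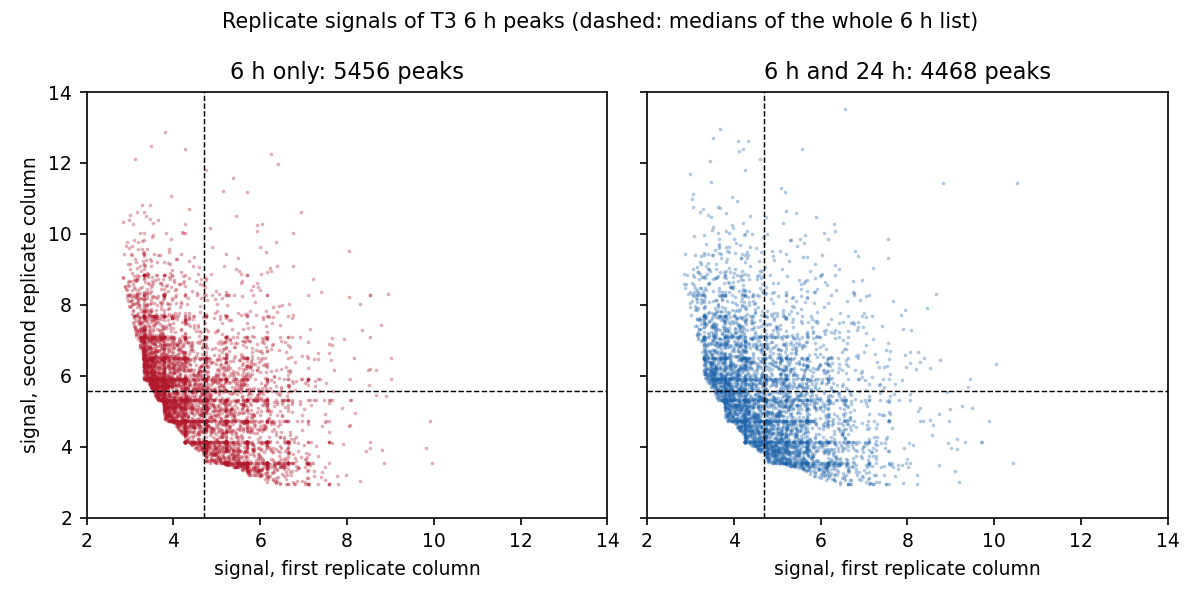
Signal of each peak in the first (x axis) and second (y axis) replicate column of the T3 6 h list, in the deposited signal unit, for the 5456 6 h only peaks (left) and the 4468 peaks shared with the 24 h list (right). Dashed lines are the medians of the whole 6 h list. The lower left corner is empty in both panels, in a list that holds only peaks that passed the IDR limit, and 604 of the 6 h only peaks lie at or above both lines.

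The replicate signals of the members also fell on a ladder of fixed steps. In the first column 25.8% of members had a signal within 0.0002 of a whole multiple of 0.474, and in the second 27.6% of a whole multiple of 0.590. The median multiple was 9 in each column. In peaks shared with the 24 h list 13.97% and 16.90% lay on the steps, and in peaks of all lists 6.24% and 6.04%. No source used here says what a step stands for.

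The members filled the lower part of the 6 h list more than its top. With the list cut into 5 equal classes by summed signal, they made up 51.7% of the weakest class and 52.1%, 51.9%, 43.4% and 26.2% of the next 4. The 11 peaks in the top 10% of both columns included those at PCDHB5, CAST, SGSH, GPC6, CD180 and PTCHD4, described below by position.

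The limit on overlap bore on few members. Of the 5456, 5361 (98.3%) touched no peak of either other list. A further 18 touched a vehicle peak and 77 a 24 h peak by less than the limit. Just inside it, 36 members had a best overlap of 40% to under 50%, the nearest at 49.8%, and just outside it 55 shared peaks had 50% to under 60%.

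A 24 h peak was nonetheless near most members. The median distance to the nearest was 16240 bp (quartiles 6912 and 38771), and 35.2% of members had one within 10 kb, against 29.9% of all bases. Within 100 kb the share was 90.5% of members and 76.4% of bases. Within 1 kb it was 4.31% of members and 5.36% of bases, a range in which overlap removes peaks from the set. For the vehicle list, 7.46% of members and 3.81% of bases lay within 10 kb, and 38.5% and 23.5% within 100 kb. No peak of either list lay within 100 kb of 365 members (6.69%). Bases are all positions of each chromosome up to its last gene or peak, with no stretch left out, such as those of unknown sequence.

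**Figure D3:**
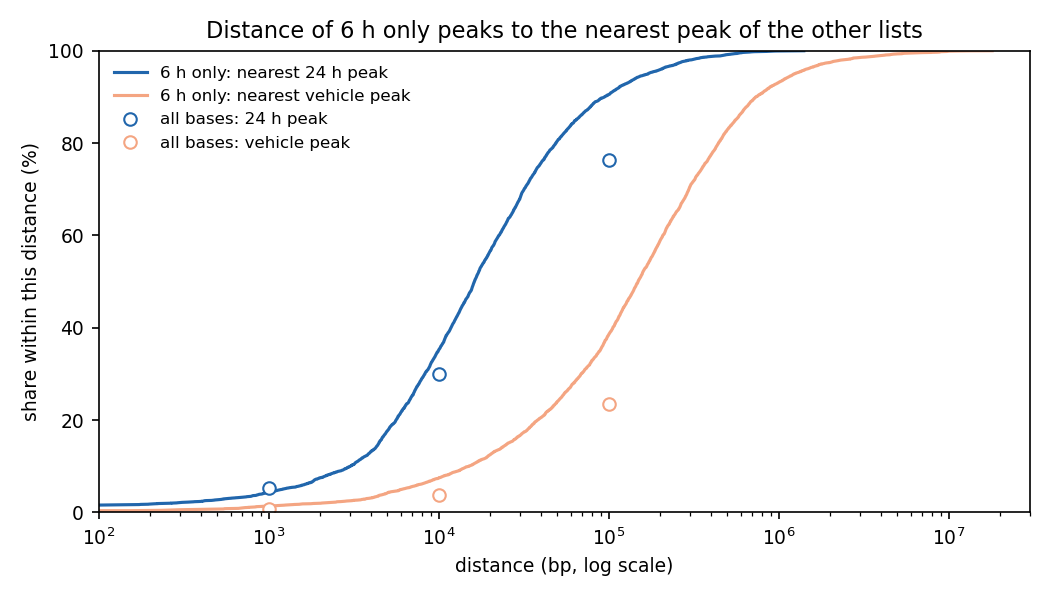
Share of 6 h only peaks (y axis, percent) whose nearest 24 h peak (blue line) or vehicle peak (orange line) lies within the distance on the x axis (bp, log scale). Open circles give the share of all bases of chromosomes 1 to 22 and X at 1, 10 and 100 kb from a peak of that list. At 10 and 100 kb the members lie above the bases for both lists.

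At gene ends the members' share was that of bases, while they were more often than bases between genes near an end and less often inside genes or far from them. A peak's position was taken as the mean of its 2 summits, and a gene end is either boundary of a protein-coding gene, within 1 kb. Bases include stretches of unknown sequence, where no peak can lie. How far these change the shares of bases was not tested. At a gene end lay 130 members (2.38%, 1.99 to 2.82), against 2.39% of bases and 35.6% (34.2 to 37.0) of peaks shared with the 24 h list. Inside a gene lay 2077 members (38.1%, 36.8 to 39.4), against 40.2% of bases and 28.2% of shared peaks. Between genes and within 100 kb of an end lay 1788 (32.8%, 31.5 to 34.0), against 25.9% of bases and 24.9% of shared peaks. Over 100 kb from any gene end lay 1461 (26.8%, 25.6 to 28.0), against 31.4% of bases and 11.3% of shared peaks. Peaks shared with vehicle only lay over 100 kb away in 76.4% of cases, and peaks of all lists in 58.9%. The 24 h list had 19.1% of its peaks at gene ends, so the members' share there is not independent of leaving out peaks that it holds.

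**Figure D4:**
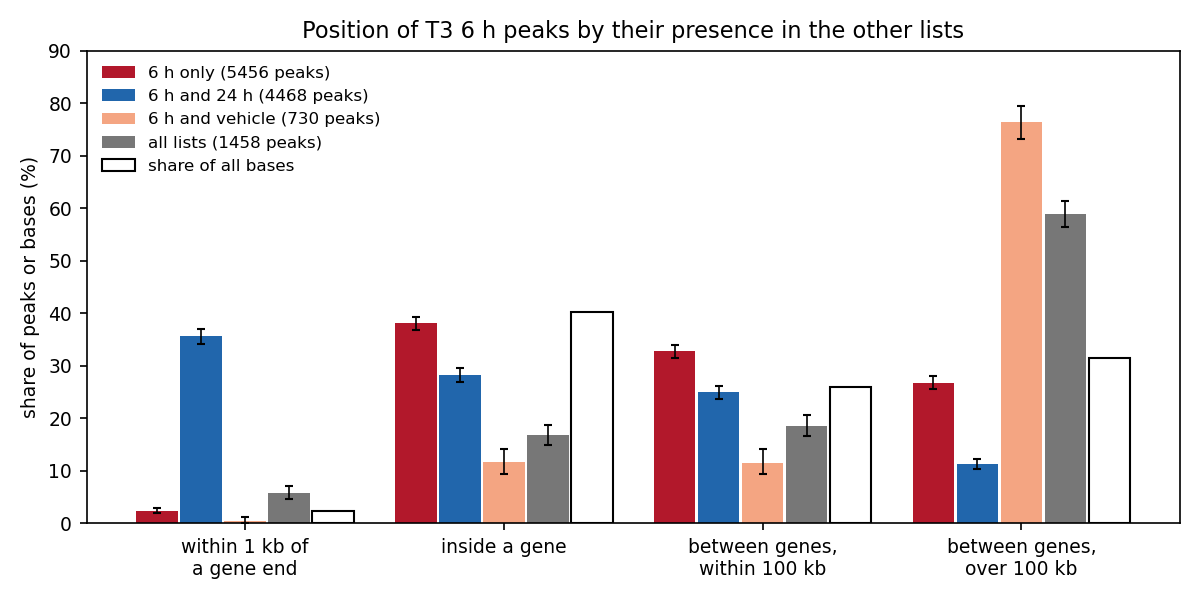
Share in percent (y axis) of 6 h only peaks (red), of 6 h peaks shared with the 24 h list (blue), with vehicle (orange) or with both (grey), and of all bases (open bars), by position relative to protein-coding genes (x axis). Error bars are 95% Clopper-Pearson intervals. At gene ends the members stand at 2.38% beside 2.39% of bases and 35.6% of peaks shared with the 24 h list.

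The share at gene ends changed with peak strength less than it differed between the sets. Over 5 equal classes of the 6 h list by signal, from weakest to strongest, it was 1.60%, 2.30%, 2.38%, 2.47% and 3.94% (2.57 to 5.77) of members, and between 33.8% and 37.5% of peaks shared with the 24 h list. With IDR at most 0.01 for the 6 h peaks it was 2.91%, and with summits within 100 bp 2.55%. It was 11.4% when every list was limited to its 6811 strongest peaks, which shortens both the 6 h and the 24 h list. Starts were read for genes with an entry in the promoter table, none on chromosome 8. Within 1 kb of such a start lay 68 of 5324 members (1.28%, 0.993 to 1.62), against 33.8% of peaks shared with the 24 h list.

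Of the 19974 protein-coding genes, 132 (0.661%) had a member at an end and 1736 (8.69%) had one inside or at an end. Of the 130 gene-end members, 45 were within 1 kb of an annotated start, and 81 of the 126 off chromosome 8 were not. Both signals reached the list median in 22 of the 130, the IDR was at most 0.01 in 34, the summits were within 100 bp in 29, and 9 met both of these last conditions.

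The highest ranked gene-end member lay at PCDHB5, a clustered protocadherin of the neuronal cell surface. This peak, chr5:141135755-141137809, had signals of 8.04 and 9.52, or percentiles 96.0 and 95.5 of the 6 h list, with its position 851 bp from the gene's start. The third highest, chr5:140828190-140829939, lay 462 bp from the start of PCDHA6, another clustered protocadherin, inside the long PCDHA1 gene. Its signals were 5.69 and 7.74, lower than at PCDHB5 in both columns.

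TGM3, the transglutaminase that cross-links proteins of the cornified envelope and hair, had a member at each end. The peak chr20:2340190-2341650 lay 502 bp from the downstream end, with signals of 6.29 and 6.90. The peak chr20:2296624-2297768 lay 748 bp from the start, with signals of 4.95 and 8.16 and summits 16 bp apart. The downstream peak was the more even across columns, and 24 h peaks lay 3267 and 3437 bp from the 2 members.

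Next in rank came members at HCAR3, OR5C1 and SLPI, besides those at KRTAP24-1 and DEFB129 given above. HCAR3, a receptor for hydroxylated fatty acids, had chr12:122715463-122716520, with signals of 5.41 and 6.55. OR5C1, an olfactory receptor, had chr9:122788815-122790271, with signals of 5.97 and 6.40 and summits 4 bp apart. SLPI, a secreted inhibitor of leukocyte proteases on mucosal surfaces, had chr20:45253590-45255039, with signals of 5.89 and 6.35 and summits 37 bp apart. These 3 peaks were alike in strength in both columns.

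SLC45A2, a transporter of pigment cells, had chr5:33984152-33985405, with signals of 5.92 and 6.16. NPIPB2 had chr16:11927424-11928618, with signals of 5.27 and 6.71. It belongs to a family of near-identical duplicated genes, so reads may not be assigned to 1 copy with certainty, and no source used here says how such reads were treated. By score and closeness of summits, C13orf42 (chr13:51172796-51174111, summits 2 bp apart, signals 6.67 and 5.75) and NCK2, an SH2/SH3 adaptor (13 bp, signals 7.09 and 5.85), stood with OR5C1, the upstream TGM3 peak and SLPI. The NCK2 peak, chr2:105894531-105895758, lay 42870 bp from its nearest annotated start.

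Inside genes the highest ranked member was chr5:96308081-96309794 in CAST, which encodes the calpain inhibitor calpastatin. It had signals of 6.77 and 10.0 and summits 19 bp apart. CAST held 8 members over 813 kb, of which 7 fell in 1 run that also spanned PCSK1, a prohormone convertase. In SGSH, a lysosomal sulfamidase gene, chr17:80209441-80212411 had signals of 6.75 and 9.09, and lay 1033 bp from an end of CARD14, a scaffold of NF-kB signalling in skin. In GPC6, a glypican gene, chr13:93472341-93474734 had signals of 8.53 and 8.27 but summits 829 bp apart.

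MLPH, an adaptor of melanosome transport, held chr2:237539321-237541984, with signals of 6.41 and 11.98, the most uneven of the leading 6. ARHGEF18, a guanine nucleotide exchange factor gene, held chr19:7439620-7440926, with signals of 6.39 and 7.81 and summits 5 bp apart. ZEB1, a zinc finger repressor of epithelial genes, held chr10:31362653-31365043, with signals of 6.37 and 9.76 and summits 677 bp apart. All 6 peaks had the score 1000.

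Over 100 kb from any gene end, the leading members were chr5:67493556-67496351 near CD180 (signals 6.95 and 10.6), chr6:48474839-48476566 near PTCHD4 (8.53 and 8.27), chr20:54897866-54898928 near DOK5 (8.30 and 8.03) and chr7:81436115-81438177 near HGF (6.38 and 9.10). Their nearest gene ends were 297262, 363911, 247006 and 262532 bp away. The DOK5 peak had its summits 61 bp apart, and those of the others were 143 to 296 bp apart.

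Members inside or near genes were spread over many genes. Inside a gene or within 100 kb of an end lay 3995 members, each assigned to 1 gene, and 2280 genes had 1 and 436 had 2. The 1684 genes with a member inside had a median length of 116 kb, against 24.2 kb for all protein-coding genes. Genes of over 500 kb held 19.9% of the members inside genes and 20.7% of the bases inside genes, so the share in long genes was close to that of bases.

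The genes with most members were DPP6, PTPRT, GRID1 and MACROD2. DPP6, an auxiliary subunit of potassium channels, had 12, all inside its 1146 kb, a density of 1.05 per 100 kb against 0.307 over all genes of chromosome 7. PTPRT, a receptor tyrosine phosphatase, also had 12, of which 10 were inside, at 0.864 per 100 kb against 0.434 for chromosome 20. GRID1, a delta glutamate receptor subunit, had 10, of which 9 were inside, at 1.17 per 100 kb against 0.253 for chromosome 10. MACROD2, which removes ADP-ribose from proteins, had 10, of which 8 were inside its 2058 kb, at 0.389 per 100 kb, which is below the 0.434 of its chromosome 20.

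The remaining genes of the 10 with most members had 7 to 9. CTNND2, a catenin of neuronal junctions, had 9, of which 8 were inside, at 0.858 per 100 kb against 0.251 for chromosome 5. CNTNAP2, a neurexin family protein, had 8 at 0.347 per 100 kb, and RBFOX1, a splicing regulator, had 8 at 0.323, against 0.307 for chromosome 7 and 0.211 for chromosome 16. AUTS2 had 8, of which 4 were inside. PCDHA1 had 7, as did PLCB1 and SUGCT. Over all chromosomes the density inside genes was 0.171 per 100 kb. These genes were picked as the highest, so their densities are a description. The 12 members of DPP6 had signals of 3.41 to 6.58 in the first column and 4.13 to 7.02 in the second, and 3 of them had summits within 100 bp.

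Some members lay close together. With gaps under 100 kb, 2353 members (43.1%) fell in 935 runs of 2 or more, 482 fell in 99 runs of 4 or more, and 3103 (56.9%) stood alone. The 5 longest runs were at chr2:92202475-92574485 and chr1:122664848-123052493 with 13 members each, chr20:26696329-27149771 with 10, and chr1:123169484-123409468 and chr14:19120371-19460393 with 9 each. The first 4 held no protein-coding gene, and the last held POTEG, of a duplicated ankyrin repeat family. Their distance to a gene end was 760 kb or more for the first 4. They were not empty in the other lists: the run on chromosome 2 held 61 vehicle peaks and 5 peaks at 24 h, and the first run on chromosome 1 held 73 and 63. How reads map in these regions, for example in repeats, was not tested.

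Across the genome, gene-free intervals of over 1 Mb held 982 of the 5456 members (95% interval 16.99% to 19.04%), against 23.9% of bases. Here too, bases include stretches of unknown sequence. The same intervals held 6.69% of peaks shared with the 24 h list, 74.2% of those shared with vehicle and 57.0% of those in all lists. The longest run within a gene cluster, chr5:140735312-140928480, held 8 members over 14 genes that included PCDHA1 to PCDHA8. A run of 6 at chr20:130021-227576 spanned the beta-defensin genes DEFB126 to DEFB129, with first-column signals of 3.49 to 7.65 and second-column signals of 5.83 to 7.08. These last 2 runs are outside the 5 longest and were chosen after their values were seen.

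The density of members differed between chromosomes. It was highest on chromosome 20 (4.51 per Mb), 7 (3.39), 10 (3.10), 5 (2.79) and 21 (2.78), and lowest on X (0.436) and chromosome 4 (0.804), against 1.80 per Mb over all. The other 6 h peaks followed a like order, with 5.92 per Mb on chromosome 20 and 0.481 on X. Over the 23 chromosomes the members' density had a Spearman correlation of 0.87 with the other 6 h peaks, 0.86 with the vehicle list and 0.70 with the 24 h list. The other 6 h peaks come from the same libraries as the members, while the vehicle and 24 h lists come from other samples of the same line. The share of 6 h peaks that were 6 h only ran from 31.1% on chromosome 19 to 54.3% on chromosome 18. The copy number of these chromosomes in the line was not tested.

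**Figure D5:**
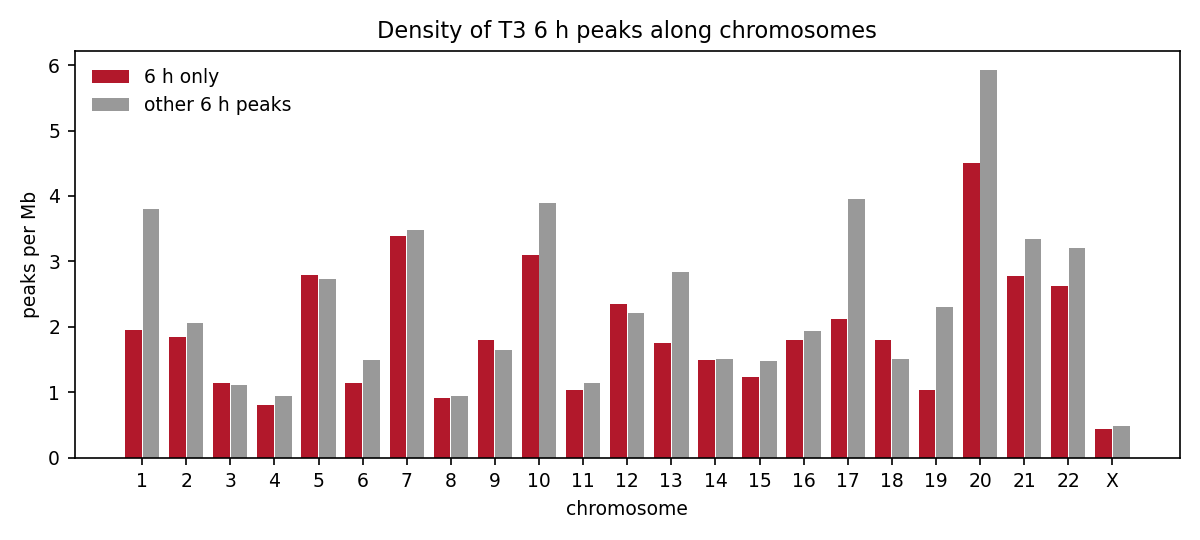
Peaks per Mb (y axis) on chromosomes 1 to 22 and X (x axis) for 6 h only peaks (red) and all other T3 6 h peaks (grey). Chromosome 20 is highest in both, at 4.51 and 5.92 per Mb, and X lowest, at 0.436 and 0.481 per Mb.

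Members lay inside some thyroid genes and at the ends of none. Of the 18 genes of thyroid differentiation none had one at an end, where the share over all protein-coding genes was 0.661%. At an end, 10 of the 18 had a 24 h peak and none a vehicle peak. No share over all genes is given here for 24 h, 6 h or vehicle peaks at an end. Among 25 housekeeping genes, 24 had a 24 h peak there. Of 10 defining markers, 5 had a 24 h peak at an end (PAX8, NKX2-1, FOXE1, HHEX and TSHR), 1 had a 6 h peak (PAX8) and none a vehicle peak. SLC5A5, DIO1 and DUOX2 had no peak at an end in any list. Members lay inside 3 of the 18 genes (16.7%), where 8.69% of all protein-coding genes had one inside or at an end. These 3, TG, GLIS3 and SLC26A4, are 268, 666 and 57.0 kb long. The median length was 34.6 kb for the 18 genes and 24.2 kb for all protein-coding genes.

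In TG, the thyroglobulin gene, the highest of 2 members lay 69.1 kb from the nearer gene end, with signals of 5.72 and 6.29 and a score of 1000. In GLIS3, a zinc finger factor needed for thyroid hormone synthesis, the member chr9:4196611-4197847 had signals of 6.16 and 4.72 and touched a 24 h peak by less than the limit. In SLC26A4, which encodes the apical anion exchanger pendrin, chr7:107685003-107685866 had signals of 5.55 and 3.45. The TG peak was the only one of the 3 above the list median in both columns.

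Known thyroid hormone response genes were alike in count. None of 26 had a member at an end, against 14 with a 24 h peak there, and 3 (11.5%, against 8.69% of all genes) had one inside. The 14 likewise have no share over all genes beside them. In ATP2A2, the sarcoplasmic reticulum calcium pump SERCA2, chr12:110336990-110339031 had signals of 5.93 and 10.1 and a score of 1000. In CPT1A, which moves fatty acids into mitochondria, the highest of 2 members, chr11:68828367-68829878, had signals of 5.01 and 5.13 and summits 5 bp apart. In PPARGC1A, a coactivator of energy metabolism, the highest of 2, chr4:24302236-24303154, had 4.27 and 4.71 with summits 685 bp apart. Of these, ATP2A2 stood in the upper part of the list in both columns, at percentiles 81.7 and 96.4. None of the 21 hormone receptors and cofactors had a member inside or at an end.

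Of 31 SWI/SNF subunit genes, 1 had a member at an end, BCL7B, and 3 (9.68%) had one inside or at an end. Over all protein-coding genes the shares were 0.661% and 8.69%, so the SWI/SNF share inside or at an end was near that of all genes. The BCL7B peak, chr7:73536601-73537223, lay 442 bp from an end, with signals of 4.17 and 5.62. SMARCA4, the BRG1 ATPase, held chr19:11050392-11051035, with 4.71 and 4.67, and DPF3, a histone-reading subunit, had as its highest of 2 chr14:72776131-72776839, with 3.80 and 5.03. None of the 3 was among the stronger members: in the lower of their columns they stood at percentiles 32.5, 25.4 and 21.3 of the 6 h list.

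Several lists of broadly expressed genes held no member. None of 21 AP-1 and immediate early genes, 30 cell cycle genes, 25 housekeeping genes, 86 histone genes or 77 mitochondrial ribosomal protein genes had a member inside or at an end, where the share over all genes was 8.69%. The median lengths of these genes were 7.17, 16.7, 18.5, 0.509 and 8.62 kb, all below the 24.2 kb of all protein-coding genes. In the same lists 2, 7, 3, 10 and 12 genes had, at an end, a 6 h peak shared with the 24 h list. Of 517 zinc finger (ZNF) genes 3 had a member at an end (0.580%, near the 0.661% of all genes) and 26 (5.03%) had one inside or at an end, while 46 had a peak shared with the 24 h list at an end. For such shared peaks the share over all genes was not computed.

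Some families of tissue-restricted genes had members at ends, in small counts. Of 46 clustered protocadherin genes 4 (8.70%) had one at an end, PCDHB5, PCDHA6, PCDHA7 and PCDHGC4, and 30 had one inside or at an end, where overlapping genes share the same peaks. Of 39 beta-defensin genes 4 (10.3%) did, DEFB118, DEFB119, DEFB127 and DEFB129, where none had a peak shared with the 24 h list. These 4 lie on chromosome 20, where the density of members was highest (4.51 per Mb, against 1.80 over all). Of 392 olfactory receptor genes 5 (1.28%) did, among them OR5C1, OR4D1 and OR2T27. The share over all genes with a member at an end was 0.661%. In the protocadherin, beta-defensin and olfactory families in turn, 8, 4 and 25 genes had a 24 h peak at an end. Vehicle peaks lay at an end of 4, 0 and 3. These 24 h and vehicle counts have no share over all genes beside them. Of 56 genes of neuronal adhesion and synapse none had a member at an end, while 20 (35.7%) had one inside, against 8.69% of all genes with one inside or at an end. The median length of these genes was 1062 kb, against 24.2 kb for all protein-coding genes. The list is wider than its name and holds long genes of other functions, such as MACROD2 and RBFOX1, described above. The list's highest ranked members were in AUTS2, chr7:69690379-69692144, with signals of 6.44 and 7.44, and in RBFOX1, chr16:5652667-5654224, with 6.12 and 7.07 and summits 38 bp apart. CNTNAP2 followed with chr7:146812596-146813840, with 7.58 and 6.64.

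The other families are given with the share over all genes, 0.661%, as background, and counts this small carry a wide counting error. A member lay at an end of 4 of 139 testis family genes (2.88%, PRAMEF10, PRAMEF19, GAGE12J and SSX2B), 3 of 398 solute carriers (0.754%, SLC45A2, SLC27A3 and SLC30A9) and 2 of 96 potassium channel genes (2.08%, KCNJ11 and KCNJ15). It lay at 1 of 94 keratin-associated protein genes (1.06%, KRTAP24-1), 1 of 55 keratins (1.82%, KRT8), 1 of 28 taste receptors (3.57%, TAS2R41), 1 of 19 late cornified envelope genes (5.26%, LCE1E), 1 of 44 collagens (2.27%, COL18A1) and 1 of 86 immune lectins and receptors (1.16%, LILRB3). Many of these genes have near-identical copies, and how reads were shared among copies was not tested. No end of 40 HOX, 13 POTE, 29 golgin-like, 98 ribosomal protein, 50 proteasome, 47 GABA and glutamate receptor, 23 cadherin or 56 cytochrome P450 genes had one. In these 8 lists in turn, 0, 0, 0, 2, 2, 6, 6 and 5 genes had a member inside. The 2 matched by the ribosomal protein pattern, RPS6KA5 and RPS6KC1, are kinase genes and not ribosomal proteins. Over all protein-coding genes the share with a member inside or at an end was 8.69%. It was 12.8% for GABA and glutamate receptors, 26.1% for cadherins and 8.93% for cytochrome P450 genes, and below 8.69% in the rest. The median gene lengths of these named lists were 146, 140 and 21.9 kb in turn, against 24.2 kb for all protein-coding genes.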

How the data were processed

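Per the labels, accessible DNA was sequenced in 6 samples, and the authors deposited 1 list of peaks for each group of 2. The tools named by the submitters' processing notes are CASAVA 1.7, Trim Galore, Bowtie2, MACS2 and DiffBind, with hg38 as the build. Settings, read shifting, duplicate removal and blacklists are not stated there. Each peak carries a deposited score (the scaled IDR) and the −log10 of its IDR as deposited, with no peak above 0.05. It also carries a deposited signal, summed over 2 replicate columns that have no sample names. The scale of that signal is unknown, and signals were compared within the 6 h list only. The lists hold no read counts, so depth is unknown. Whether samples were separate cultures is not stated.

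Shared and 6 h only peaks were found in Python 3.11.15 with pandas 2.3.3, numpy 2.4.6 and scipy 1.17.1, and figures drawn with matplotlib 3.10.9. The overlap step gave the same 5456 peaks as bedtools 2.31.1. On 600 simulated peaks with planted overlaps below or above the limit, it classed 100% correctly. The simulated pairs were of equal width, so they did not try the choice of the shorter peak. RefSeq tables of GRCh38.p14, the assembly behind hg38, gave 19974 protein-coding genes, 22132 starts with promoter sequence, and microRNAs. Exons were not in the tables used, and no sequence of the peaks themselves was read. Members, the 31 gene lists and families and the rule for named genes were chosen with earlier results of these data known. The rule took the highest ranked members at gene ends, inside genes and far from genes, the genes with most members, the longest runs, and up to 8 members per list. Intervals are exact Clopper-Pearson intervals at 95% and describe counting error alone. Alternatives changed the overlap, IDR limit, summit distance, list length, replicate column and gene-end window. Peaks outside chromosomes 1 to 22 and X were not analysed here.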

Additional observations from a re-analysis of the deposited data

How the results depend on the processing

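The comparisons rest on 1 list per group, so settings could be varied but not replicated. No paired analysis was possible because the replicate columns carry no sample name or number and each group has 1 list. The result on CG dinucleotides, and its alternatives, were added after seeing the data. Of the values recomputed under 11 alternatives, 33 stayed close to the value reported and 43 moved. Close meant within the 95% interval for shares, within the exact 95% interval of the median for widths, and within 1.5 times for counts. Requiring no overlap at all moved none of them. The cause of the other moves was not tested, except that stricter limits leave fewer peaks by construction.

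With sharing at 50% of the longer peak, 4.13% of members lay at a gene end, at 281 genes, 36.7% lay inside a gene, 22.3% had summits within 100 bp, and 28.2% of covered starts had fewer than 10 CG dinucleotides. With no other peak within 1 kb that last share was 83.9%. Limiting the 6 h peaks to an IDR of at most 0.01 left 1168 members, with 2.91% at a gene end, at 33 genes, 27.1% with summits within 100 bp and a median width of 1449.5 bp. The same limit on all lists left 1513 members, with 36.2% inside a gene, 29.6% over 100 kb away, 25.8% with summits within 100 bp, a median width of 1476 bp and 40 genes at ends. Summits within 100 bp, met by 100% of the 1136 members kept, gave 29.0% over 100 kb away, a median width of 1087.5 bp, 30 genes at ends and 33.3% of covered starts with fewer than 10 CG dinucleotides.

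Lists of equal length gave the greatest change at gene ends, 11.4% of members at 576 genes, with 35.2% inside a gene, 22.03% over 100 kb away, a median width of 1349 bp and 8.95% of covered starts with fewer than 10 CG dinucleotides. A gene-end window of 500 bp gave 1.23% at 69 genes, and one of 2 kb gave 5.08% at 295 genes. Keeping only members at or above the median of 1 replicate column gave 2285 to 2631 members, 2.23% to 2.89% at a gene end, 51 to 77 genes at ends, 25.5% to 27.5% over 100 kb away, 18.9% to 24.3% with summits within 100 bp, and median widths of 1272 to 1291 bp.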
